A study of Mus musculus with 3 samples.

Results

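The genes described here are 38 genes of DNA replication and entry into S phase, chosen by name, out of 23185 genes that the array table pairs with 1 symbol. All 38 were found. They encode the origin recognition complex (6 genes), the licensing factors and their inhibitor (3), the MCM2-7 helicase (6), proteins that activate it (6), the sliding clamp and its loader (6), polymerase and primase subunits (5), enzymes of nucleotide supply (3) and regulators of S phase entry (3). They were read on 3 arrays of mouse bone marrow long-term haematopoietic stem cells, sorted as Lin-, ckit+, Sca+, Flk2-, CD48- and CD150+ cells. The cells stood overnight in Stemspan SFEM medium, received no irradiation (0 Gy), 0.02 Gy or 2.5 Gy of γ-irradiation, and were harvested after 2 hours. Each dose has 1 array, so there is no spread between replicates, no test was run, and every difference is one between single arrays. The sources used here do not give strain, age or the number of animals.

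Before a cell copies its DNA, the origin recognition complex marks origins, and Cdc6 and Cdt1 load the ring-shaped MCM2-7 helicase onto them, a step called licensing. In S phase, Cdc45 and the GINS complex join the helicase and switch it on, the RFC complex loads the PCNA clamp, and DNA polymerases α, δ and ε copy the strands. Transcription of many of these genes is driven by E2F factors when a cell leaves quiescence. Long-term stem cells are largely quiescent in the bone marrow, and quiescent cells keep licensing factors low.

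Values are the deposited ones on the log2 scale, and a difference of 0.58 is a 1.5-fold difference. Levels are compared between arrays for the same gene, and not between genes, because probe sets differ in brightness. A level minimum of 4.55, the median of all named genes averaged over the 3 arrays, kept 11593 genes, and 28 of the 38 replication genes passed it. The other 10 (Orc6, Cdc6, Mcm10, Gins1, Gins2, Gins3, Pola2, Prim1, Rrm2 and Ccne2) were measured below it. They are described by their values and are left out of the counts.

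The arrays had medians of 4.60 (0 Gy), 4.54 (0.02 Gy) and 4.55 (2.5 Gy). Of 11 measured stem cell and sorting marker genes, 10 passed the level minimum, among them Kit (8.58, 8.78 and 8.50 at 0, 0.02 and 2.5 Gy) and Hlf (7.21, 7.62 and 7.88). The gene of the excluded marker CD48 was below the minimum on every array. Flt3, the gene of the other excluded marker named, Flk2, is among the 10 that passed, at 4.60, 4.95 and 4.93. Slamf1, the gene of the sorting marker CD150, was at 5.24, 4.75 and 4.84. Of 9 measured markers of mature lineages 3 passed the minimum, Itgam, Adgre1 and Klrb1c, the last at 7.04, 6.91 and 6.84. The proliferation marker Mki67 was at 7.23, 7.47 and 7.54. Its differences from 0 Gy were 0.24 and 0.32, where genes of like level had medians of 0.21 and 0.15. In bulk arrays, a change in the number of cells in cycle and a change in RNA per cycling cell cannot be told apart.

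The promoters of some replication genes held E2F motifs. RefSeq promoter windows (assembly GRCm38.p6, 250 bases before to 50 bases after a transcript start) were matched for 30 of the 38 genes, 34 windows in all. The motifs searched, on both strands, were TTTCCCGC, TTTCGCGC, TTTGCCGC and TTTGGCGC, and TTTCGCGC and TTTGGCGC can overlap on opposite strands. At least 1 of them lay in the window of 12 genes (40.0%), against 704 of 27025 genes with a window (2.61%). Per window, the shares were 35.3% of the replication gene windows and 2.26% of all 32851. The stretches of these 12 genes are shown because E2F factors are known to drive transcription of replication genes through such sites. Each is written 5′ to 3′ on the strand of the gene, with the motif, or its reverse complement, in capitals.

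Cdc6, chr11:98908002-98908031, plus strand: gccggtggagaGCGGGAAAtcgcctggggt
Cdt1, chr8:122568036-122568064, plus strand: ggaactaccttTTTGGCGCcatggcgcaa
Gins3, chr8:95633507-95633536, plus strand: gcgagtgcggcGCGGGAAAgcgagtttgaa
Mcm3, chr1:20820275-20820304, minus strand: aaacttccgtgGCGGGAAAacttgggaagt
Mcm3, chr1:20820263-20820285, minus strand: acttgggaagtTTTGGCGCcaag
Mcm5, chr8:75109347-75109376, plus strand: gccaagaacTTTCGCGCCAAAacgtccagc
Mcm6, chr1:128359795-128359824, minus strand: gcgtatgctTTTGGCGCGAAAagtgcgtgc
Mcm6, chr1:128359734-128359763, minus strand: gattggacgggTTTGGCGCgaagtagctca
Mcm7, chr5:138172030-138172059, minus strand: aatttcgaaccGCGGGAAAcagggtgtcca
Mcm7, chr5:138171849-138171878, minus strand: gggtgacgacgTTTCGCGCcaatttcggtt
Orc1, chr4:108579416-108579445, plus strand: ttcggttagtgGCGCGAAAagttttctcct
Orc3, chr4:34614965-34614994, minus strand: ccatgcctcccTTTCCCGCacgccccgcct
Pola1, chrX:93632275-93632304, minus strand: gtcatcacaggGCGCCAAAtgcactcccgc
Pold1, chr7:44548766-44548787, minus strand: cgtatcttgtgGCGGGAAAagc
Rfc3, chr5:151651195-151651224, minus strand: gcacgcTTTCGCGCtcGCGGGAAAactcta

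In Mcm5 and Mcm6 the motifs of both strands overlapped in a core of 12 bases, TTTCGCGCCAAA in Mcm5 and its reverse complement TTTGGCGCGAAA in Mcm6. This core, picked out after the search, was found in 4 of all windows (0.0122%). The 250 bases before the Mcm6 start, also picked out after the search, show it 110 bases before the start and a further motif 47 bases before the start.

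Mcm6 upstream, chr1:128359706-128359955, minus strand: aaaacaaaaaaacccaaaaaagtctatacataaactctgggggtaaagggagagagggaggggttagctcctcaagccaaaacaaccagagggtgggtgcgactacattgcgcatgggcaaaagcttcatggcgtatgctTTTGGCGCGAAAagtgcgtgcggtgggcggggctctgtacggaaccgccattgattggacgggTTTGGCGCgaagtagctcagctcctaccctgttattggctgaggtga

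In Rfc3 a pair of motifs lay at and just before the transcript start, and in Cdt1, Mcm3 and Pold1 the motifs lay after it. A match describes these letters and is not a binding site. Of the genes past the level minimum, 10 had a motif in their window and 13 had a window without one. Against 0 Gy the medians of those with and without a motif were 0.09 and 0.20 at 0.02 Gy, and 0.10 and 0.03 at 2.5 Gy. In 2.5 Gy minus 0.02 Gy they lay on opposite sides of 0, at 0.26 with a motif and −0.24 without. Above 0 in that comparison were 7 of the 10 genes with a motif and 3 of the 13 without, where 49.4% of all genes were. In 0.02 Gy minus 0 Gy, 6 of the 10 and 11 of the 13 were above 0, where 54.2% of all genes were. In 2.5 Gy minus 0 Gy the counts were 8 of the 10 and 7 of the 13, where the share was 53.4%. Gins4, Gmnn, Mcm4, Pole and Rfc2 passed the minimum but had no window, and are in neither group. In the group without a motif, every window of E2f1, Orc4 and Rfc1 lay inside the gene. For them the bases before the outermost start of the gene were not searched. The window of Orc1, in the group with a motif, also lay inside its gene. The split by motif was read from single arrays and was not tested.

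The replication genes as a group stayed close to their unirradiated values at 2.5 Gy. The median difference from 0 Gy was 0.04 for the 28 genes past the minimum, against 0.02 for all 11593 genes. Of the 28, 17 were above 0 and 11 below. At least 1.5-fold higher was 1 gene, Cdt1 (3.57% of the 28), where 6.07% of all genes were. At least 1.5-fold lower were 0 genes, where 3.44% of all genes were. None of the 28 was 2-fold higher or lower in any comparison, where 2.47% (0.02 Gy minus 0 Gy), 1.73% (2.5 Gy minus 0 Gy) and 2.5% (2.5 Gy minus 0.02 Gy) of all genes were. Over the 3 arrays together, 22 of the 28 genes (78.6%) kept within a range of 0.5, and 68.8% of all genes did.

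At 0.02 Gy, more of the genes lay above their unirradiated values. The median difference was 0.18, against 0.04 for all genes, and 21 of 28 were above 0, where 54.2% of all genes were. At least 1.5-fold higher were 2 genes, Rfc4 and Orc4, which is 7.14% of the 28 beside 7.5% of all genes. At least 1.5-fold lower were 0, beside 4.72%. The higher share is near that of all genes, and most of the 28 lay above 0 by less than 1.5-fold. On these arrays the difference also moved with signal level. With the 11593 genes split by level into 10 bins of equal size, the median over all genes was −0.07 in the lowest bin and 0.21 in the highest. After loess removal of that trend the median of the replication genes was 0.11, and after quantile normalization it was 0.12. Among all genes past 1.5-fold in this comparison, 61.4% were higher as deposited, 51.1% after quantile normalization and 51.0% after loess.

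**Figure D1:**
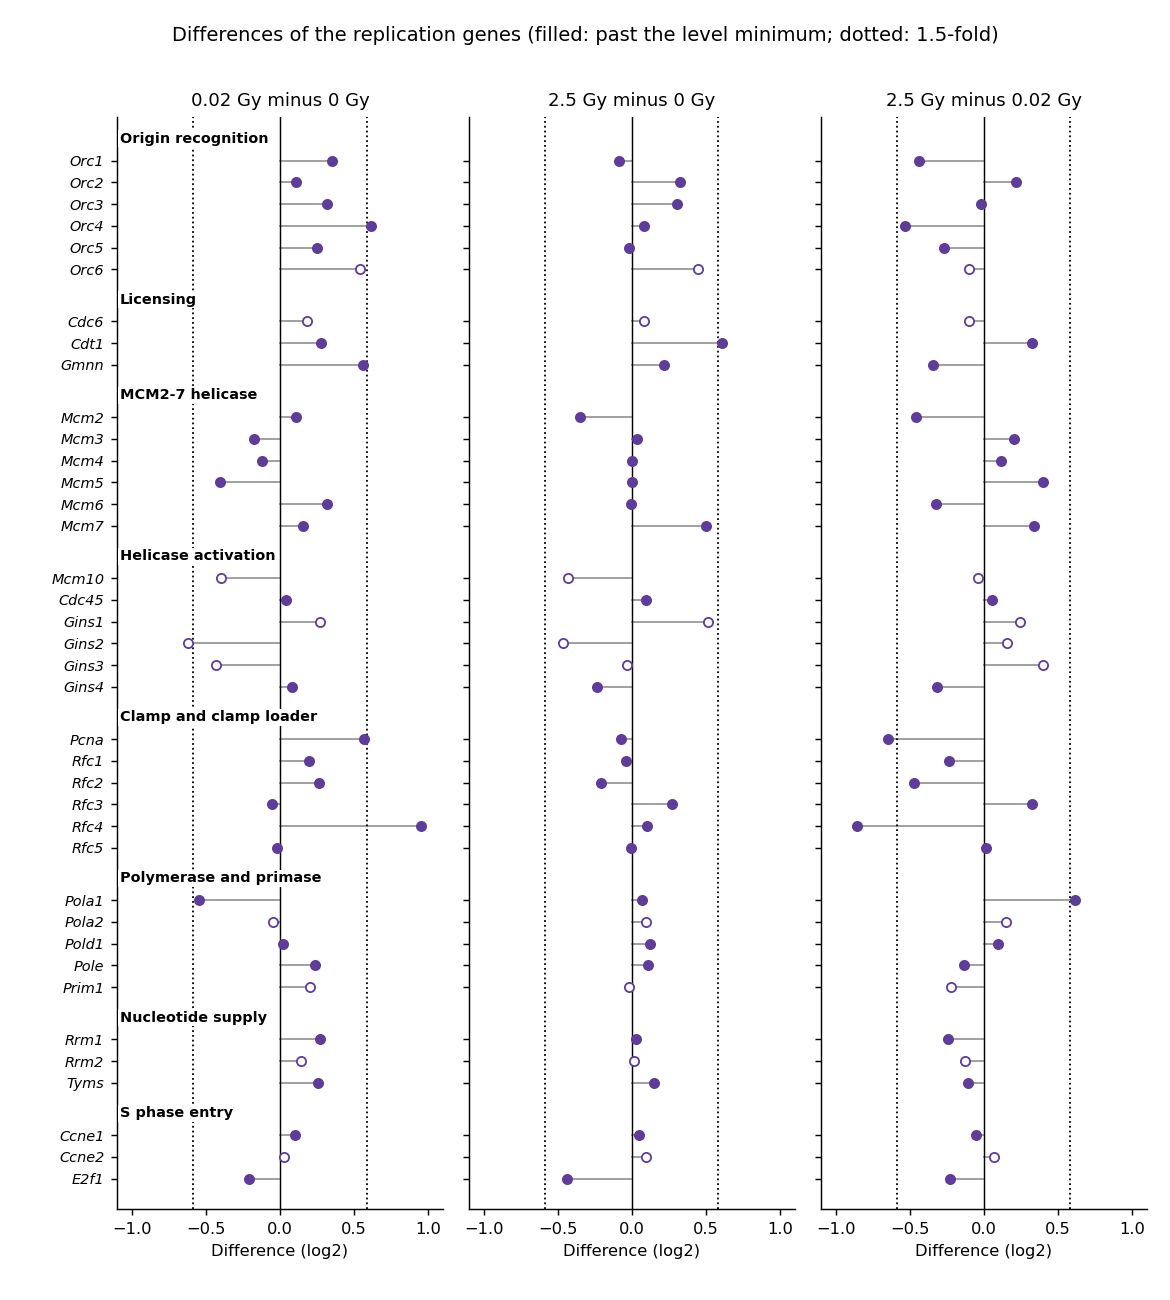
Differences in log2 value of the 38 replication genes, by role, in 0.02 Gy minus 0 Gy (left), 2.5 Gy minus 0 Gy (middle) and 2.5 Gy minus 0.02 Gy (right). Each point is 1 gene on a pair of single arrays, filled where the gene passed the level minimum, and dotted lines mark 1.5-fold. Rfc4 reaches 0.95 in the left panel and −0.85 in the right, and most points in the middle panel lie near 0.

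The origin recognition complex genes were higher at 0.02 Gy than at 0 Gy in all 5 members past the minimum, with a median of 0.32. Over all genes 54.2% were above 0, with a median of 0.04. At 2.5 Gy the median of the 5 genes was 0.08, against 0.02 for all genes. Orc4, a subunit of the ring that binds origin DNA, was at 4.83, 5.45 and 4.91 (0, 0.02 and 2.5 Gy), so only the 0.02 Gy array stood apart. Its difference was 0.62 at 0.02 Gy, and genes of like level had a median of −0.04 and a robust SD of 0.32 in that comparison. Robust SD here is the spread of other genes between the same arrays, not replicate error. Orc1, the subunit whose level is cell cycle regulated, was at 4.86, 5.21 and 4.77. Orc3, a subunit that stays bound to Orc2, was at 6.69, 7.02 and 7.0, higher on both irradiated arrays by about the same amount. Its differences were 0.32 at 0.02 Gy and 0.305 at 2.5 Gy. Genes of like level had medians of 0.21 and 0.15 there, with robust SDs of 0.34 and 0.33. Orc2 was at 5.14, 5.24 and 5.46, and Orc5 at 4.86, 5.11 and 4.84. Orc6, below the minimum on average, was at 3.98, 4.52 and 4.43.

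Licensing is carried out by Cdt1 and Cdc6 and blocked by geminin, the product of Gmnn, which binds Cdt1. Cdt1 was at 4.57, 4.85 and 5.18, and its difference at 2.5 Gy, 0.61 (1.52-fold), was the only one of the 28 past 1.5-fold in that comparison. The value lies just past the limit, and with median centring it was 0.58 and no longer past it. Gmnn was at 4.67, 5.23 and 4.89, highest at 0.02 Gy, where its difference of 0.56 was just under 1.5-fold. After quantile normalization and after loess it was just past 1.5-fold, at 0.60 each. Loader and inhibitor thus had their highest values on different arrays, Cdt1 at 2.5 Gy and Gmnn at 0.02 Gy. Cdc6 was at 4.08, 4.26 and 4.16, below the minimum on each array.

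The genes of the 6 subunits of the MCM2-7 ring, which sit in the ring in equal numbers, did not all differ in the same direction. Mcm3, Mcm4 and Mcm5 had their lowest value at 0.02 Gy. Mcm5 was at 4.75, 4.35 and 4.75, with the 0.02 Gy value under the level minimum. Mcm3 was at 5.41, 5.23 and 5.44, and Mcm4 at 5.21, 5.09 and 5.21. Mcm6 went the other way, at 6.06, 6.38 and 6.06, the same at 2.5 Gy as at 0 Gy. In 0.02 Gy minus 0 Gy, genes of like level had robust SDs from 0.31 to 0.35. Of the 6 genes only Mcm5, at −0.40, differed by more than the robust SD at its level. At 2.5 Gy, Mcm7 was the highest of its own 3 values (4.93, 5.08 and 5.43) and Mcm2 the lowest (5.66, 5.77 and 5.32). Their differences from 0 Gy, 0.50 and −0.35, were both under 1.5-fold, beside robust SDs of 0.28 and 0.30 at like level. The median of the 6 genes was −0.00 at 2.5 Gy and −0.01 at 0.02 Gy.

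**Figure D2:**
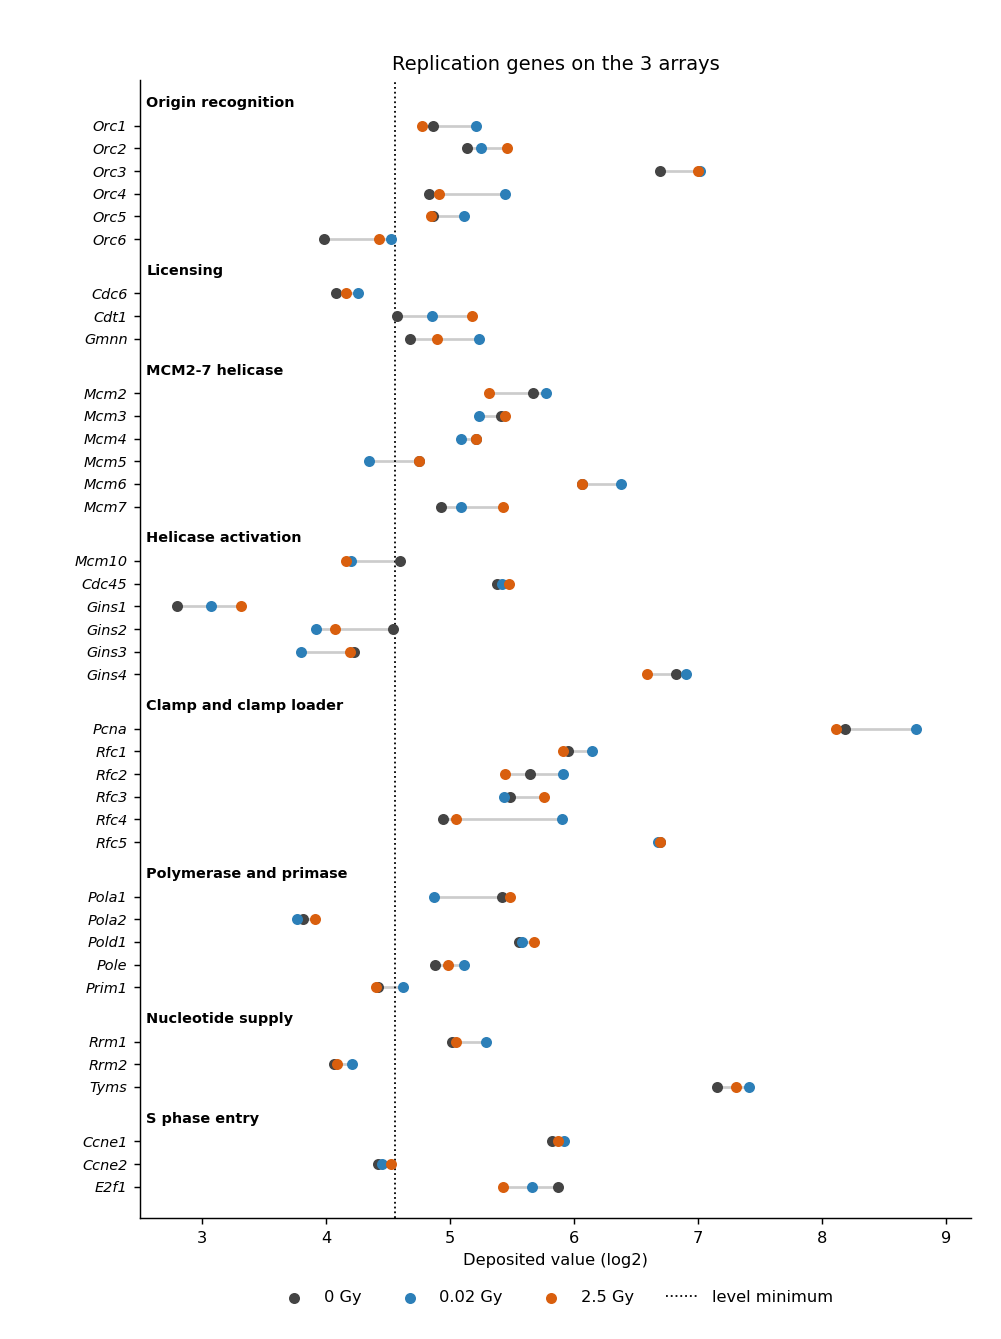
Deposited log2 values of the 38 replication genes at 0, 0.02 and 2.5 Gy, by role. Each point is 1 array, grey lines join the lowest and highest value of a gene, and the dotted line marks the level minimum of 4.55. The 0.02 Gy point of Rfc4 (5.90), Pcna (8.76) and Orc4 (5.45) stands to the right of the other 2, and that of Pola1 (4.87) to the left.

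Of the genes that switch the helicase on, 2 passed the minimum. Cdc45, part of the active helicase, was nearly level at 5.38, 5.42 and 5.47. Gins4, a GINS subunit, was at 6.82, 6.90 and 6.59. The other GINS genes and Mcm10, which helps to start the helicase, lay below the minimum, where signal over background is not known. Gins2 was at 4.54, 3.92 and 4.07 and Mcm10 at 4.59, 4.20 and 4.16, both lower on the irradiated arrays. Gins1 was at 2.80, 3.07 and 3.31 and Gins3 at 4.22, 3.79 and 4.19, so the GINS genes had no common order of the doses.

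The clamp and its loader held the 2 of the 28 genes that were at least 1.5-fold lower at 2.5 Gy than at 0.02 Gy. Rfc4, a small subunit of the clamp loader, was at 4.94, 5.90 and 5.05. The 0.02 Gy array was 0.95 above 0 Gy (1.94-fold), where genes of like level had a median of 0.01 and a robust SD of 0.32, and 98.4% of all genes had a lower difference. The 2.5 Gy array was 0.85 below it (1.81-fold) and within 0.10 of the unirradiated one. Under quantile normalization, median centring and loess, the Rfc4 difference at 0.02 Gy ran from 0.93 to 0.95.

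Pcna, the sliding clamp that holds polymerases on DNA, was also highest at 0.02 Gy, at 8.19, 8.76 and 8.11. Its difference in 2.5 Gy minus 0.02 Gy was −0.64 (1.56-fold), past 1.5-fold, while that in 0.02 Gy minus 0 Gy was 0.57. The difference from 0 Gy depended on scaling: genes of like level had a median of 0.21, and the value was 0.33 after loess and 0.29 after quantile normalization. Pcna is also a known p53 target, and at 2.5 Gy its difference from 0 Gy was −0.07 as deposited, −0.28 after loess and −0.32 after quantile normalization. The other loader subunits did not share one pattern. Rfc2 (5.65, 5.91 and 5.44) and Rfc1, the large subunit (5.95, 6.15 and 5.91), were highest at 0.02 Gy. Rfc3 was highest at 2.5 Gy (5.49, 5.43 and 5.76), and Rfc5 hardly differed (6.69, 6.68 and 6.69).

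Among polymerase genes, Pola1 stood apart in the opposite direction. Pola1, the catalytic subunit of polymerase α, which with primase starts each new strand, was at 5.41, 4.87 and 5.49. Only the 0.02 Gy array was low, by 0.55 against 0 Gy. In 2.5 Gy minus 0.02 Gy the difference was 0.62 (1.53-fold), where genes of like level had a robust SD of 0.32. Its partners Pola2 (3.81, 3.76 and 3.91) and Prim1, the catalytic primase subunit (4.42, 4.62 and 4.40), were below the minimum. Pold1 and Pole, the catalytic subunits of the polymerases of the lagging and leading strands, were at 5.56, 5.58 and 5.68 and at 4.87, 5.11 and 4.98.

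Genes of nucleotide supply and of S phase entry stayed under 1.5-fold in every comparison, as most genes did. Past 1.5-fold in either direction were 12.2% (0.02 Gy minus 0 Gy), 9.51% (2.5 Gy minus 0 Gy) and 11.4% (2.5 Gy minus 0.02 Gy) of all genes. Tyms, which makes thymidylate, was at 7.16, 7.41 and 7.31. Rrm1 and Rrm2 encode the subunits of ribonucleotide reductase. Rrm1 was at 5.02, 5.29 and 5.04, and Rrm2 at 4.07, 4.21 and 4.08 on arrays where it lay below the minimum. Ccne1, the cyclin E gene that acts with Cdk2 at S phase entry, was at 5.82, 5.92 and 5.87, and Ccne2 at 4.42, 4.45 and 4.52. E2f1, an activator of replication genes, had lower values at each dose step, at 5.87, 5.66 and 5.43. Its difference of −0.44 at 2.5 Gy was the lowest of the 28 genes in that comparison and under 1.5-fold.

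Set directly against 0.02 Gy, the 2.5 Gy array held lower values for 17 of the 28 genes. In 2.5 Gy minus 0.02 Gy the median of the 28 genes was −0.12, against −0.00 for all genes, and 60.7% of the 28 were below 0, where 50.4% of all genes were. At least 1.5-fold lower were 2 genes, Rfc4 and Pcna (7.14%, beside 5.67% of all genes), and 1 was higher, Pola1 (3.57%, beside 5.74%). These shares are close to those of all genes. The comparisons share arrays, so a gene that stands apart at 0.02 Gy alone appears in both comparisons with that array, as Rfc4 does. By array, 3 of the 28 genes had their highest value at 0 Gy, 16 at 0.02 Gy and 9 at 2.5 Gy. Over all genes the counts were 3433, 4332 and 3828.

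**Figure D3:**
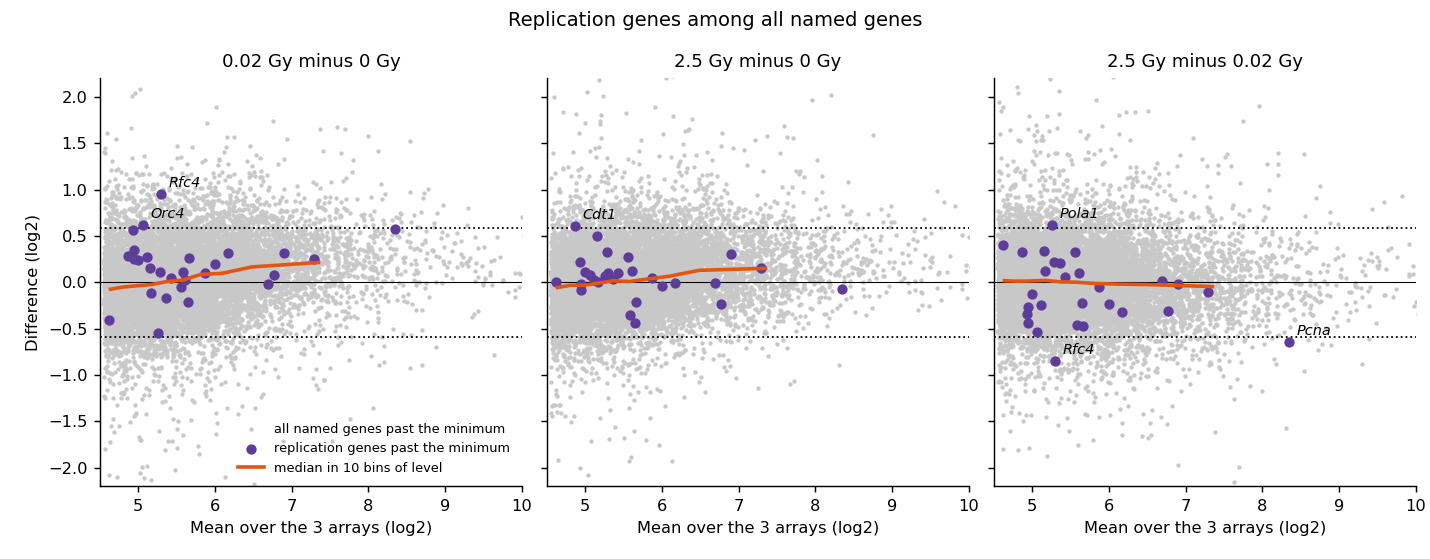
Difference in log2 value against mean level over the 3 arrays for all 11593 named genes past the minimum (grey) and the 28 replication genes past it (purple), with the median in 10 bins of level (orange) and 1.5-fold marked by dotted lines. Panels are 0.02 Gy minus 0 Gy, 2.5 Gy minus 0 Gy and 2.5 Gy minus 0.02 Gy, and 53, 43 and 55 genes lie outside the drawn limits. The replication genes lie inside the grey cloud, and Rfc4 is the highest of them on the left (0.95) and the lowest on the right (−0.85).

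A further 92 genes of replication and its control, in 6 lists, were read beside the 38, and 90 were measured, of which 64 passed the minimum. Their median difference was 0.11 at 0.02 Gy and 0.03 at 2.5 Gy. At 0.02 Gy, 6 of the 64 (9.38%) lay at least 1.5-fold above 0 Gy and 0 below, beside 7.5% and 4.72% of all genes. At 2.5 Gy the counts were 7 above (10.9%) and 3 below (4.69%), beside 6.07% and 3.44%. Among further polymerase and lagging strand genes, Pole4, an accessory subunit of polymerase ε, was at 4.51, 5.50 and 5.10. Rpa3, a subunit of the single-strand binding protein RPA, was at 5.38, 6.05 and 5.41, high at 0.02 Gy alone as Rfc4 was. Pold3, an accessory subunit of polymerase δ, was at 5.92, 6.43 and 6.59, and was 0.67 higher at 2.5 Gy than at 0 Gy. In that comparison genes of like level had a median of 0.13 and a robust SD of 0.31.

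Of the 8 origin firing and fork genes past the minimum, 6 were below 0 in 2.5 Gy minus 0 Gy, where 46.4% of all genes were, and 1, Clspn, was at least 1.5-fold lower. The median was −0.21, and over all 18 genes of the list, without the level minimum, it was −0.07. Clspn, which encodes claspin, an adaptor of the replication checkpoint, was at 5.49, 5.28 and 4.77. Topbp1, which acts in origin firing and in activating the ATR kinase, was at 6.19, 6.43 and 5.73. Cdc7, the kinase that triggers origin firing through MCM proteins, was at 4.91, 5.53 and 4.71, and 0.82 lower at 2.5 Gy than at 0.02 Gy. These 3 had the largest differences of the 8 genes, and all 3 had their lowest value at 2.5 Gy. Of the 8 genes, 4 were lowest at 2.5 Gy and 2 were highest there, where 3477 and 3828 of 11593 genes were. Cdc7 and Topbp1 were highest at 0.02 Gy and Clspn at 0 Gy.

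The 2-fold differences of the wider pathway, among genes past the minimum, were in the list of G1-S kinases and inhibitors, where 16 genes passed. At 2.5 Gy 2 of the 16 were 2-fold higher and 1 lower (18.8%), beside 1.73% of all genes. The list was chosen with earlier results of these data known, so this share describes the list and is no test of it. In 2.5 Gy minus 0 Gy 8 of the 16 were above 0 and 8 below, with a median of 0.01. Cdkn1a encodes p21, which inhibits Cdk2 and binds PCNA, and was at 5.65, 6.12 and 7.30, a difference of 1.65 at 2.5 Gy. Cdk6, a kinase that releases E2F from the retinoblastoma protein, was at 6.01, 6.73 and 7.17, a difference of 1.17. Fbxo5 encodes Emi1, which keeps the anaphase-promoting complex inactive in S phase. It was at 6.63, 7.29 and 5.61, a difference of −1.03 at 2.5 Gy and of −1.68 in 2.5 Gy minus 0.02 Gy. Genes of like level to Cdkn1a, Cdk6 and Fbxo5 had a median of 0.13 and a robust SD of 0.31 in 2.5 Gy minus 0 Gy. Cdkn1a and Cdk6 both had their highest value at 2.5 Gy. The other Cdk inhibitor genes past the minimum, added after their values were seen, were split at 2.5 Gy. Cdkn2c and Cdkn1c differed from 0 Gy by −0.65 and −0.40, and Cdkn2d and Cdkn1b by 0.38 and 0.11. The 2.5 Gy value of Cdkn2c, 4.26, was under the level minimum. Cdk2, the partner of cyclins E and A, was at 5.92, 5.47 and 5.56, and Ccna2, the cyclin A gene of S phase, at 6.29, 6.14 and 6.75.

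In the E2F and pocket protein list, Tfdp1, the partner of E2F proteins, was at 5.98, 5.85 and 6.48. E2f4, which acts mainly as a repressor in quiescent cells, was at 5.78, 6.40 and 6.0, and Rbbp4, a histone-binding subunit, at 5.96, 6.06 and 6.55. E2f3 lay below the minimum on average, at 3.49, 4.66 and 4.63, and was picked out after its values were seen. Slbp, which binds the stem-loop of histone mRNA, was at 6.10, 6.21 and 6.89 and was the only chromatin assembly gene past 1.5-fold. None of 6 further nucleotide supply genes past the minimum was 1.5-fold different in any comparison, where 12.2%, 9.51% and 11.4% of all genes were.

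**Figure D4:**
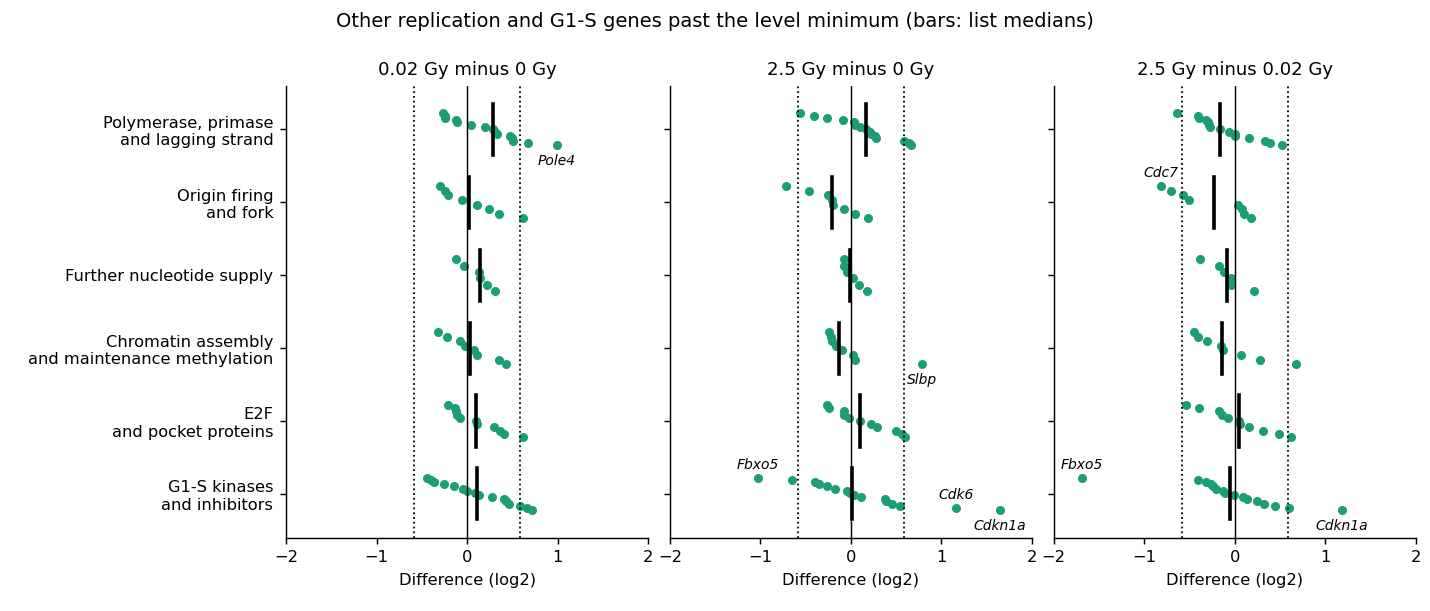
Differences in log2 value of the 64 other replication and G1-S genes past the level minimum, by list, in 0.02 Gy minus 0 Gy (left), 2.5 Gy minus 0 Gy (middle) and 2.5 Gy minus 0.02 Gy (right). Each point is 1 gene, black bars are list medians and dotted lines mark 1.5-fold. Cdkn1a (1.65), Cdk6 (1.17) and Fbxo5 (−1.03) lie past 2-fold in the middle panel.

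Markers of cycling progenitors were read because such cells express replication genes. Of 9 measured, 6 passed the minimum, with a median difference of 0.03 at 0.02 Gy and 0.03 at 2.5 Gy. At each dose 3 of the 6 were above 0 and 3 below, where 54.2% and 53.4% of all genes were above. The summed value of all 9 on the linear scale was 265 at 0 Gy, 289 at 0.02 Gy and 283 at 2.5 Gy. Elane, a neutrophil granule protease gene, was at 4.96, 5.89 and 5.08, the largest difference of the 6 at 0.02 Gy (0.94). Mpo, another granule enzyme gene, was at 5.29, 5.45 and 5.99, the largest difference of the 6 at 2.5 Gy (0.70). The erythroid gene Car1 and the lymphoid genes Il7r and Rag1 were below the minimum. The part of these cells in the replication gene values was not tested.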

How the data were processed

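Gene expression was measured on 3 Affymetrix arrays, 1 per dose, labelled with the whole-transcript sense target kit, per the labels' protocols. The submitters' processing notes name Partek. Normalization and background correction are not stated in those notes or the labels. The deposited values are on a log2 scale, as read from their range of 1.55 to 12.4, and no scanner files were used, so signal over background is unknown. Precision is limited by the number of arrays.

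Of 25206 probe sets, 23185 had 1 symbol in the platform annotation, and 2021 had none and were left out. A gene was kept if its average over the arrays reached 4.55. Differences were taken gene by gene between arrays and counted at 1.5-fold and 2-fold, with no test and no p-value. The 10 bins of level gave the medians and robust SDs. Alternatives were loess (span 0.3), median centring, quantile normalization, a minimum at the 75th percentile (5.46) or none, list means, and fold limits of 0.32 on the log2 scale and of 3-fold. The steps were tested on simulated data. Python 3.11.15, pandas 2.3.3 and statsmodels 0.14.6 were used.

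The members, lists and rules were chosen with earlier results of these data known. All 38 members were named. From the other lists, up to 3 genes each, past the minimum and at least 1.5-fold different in a comparison, were named, with Cdkn1a, Cdk2, Ccna2 and Cdc7. Promoter sequences were to be shown for members past 1.5-fold with a motif and for 2 stable ones, and here short stretches are shown for every member with a motif. Some genes of the other and marker lists are not reported here.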

Additional observations from a re-analysis of the deposited data

How the results depend on the processing

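No paired analysis was possible because there is a single array for each dose. The median difference of the replication genes kept its sign under every alternative except at the 75th percentile minimum, where it was −0.0038 in 2.5 Gy minus 0 Gy. At that minimum it was 0.11 in 0.02 Gy minus 0 Gy and −0.23 in 2.5 Gy minus 0.02 Gy. In 0.02 Gy minus 0 Gy it was also 0.11 after loess and 0.12 after quantile normalization, against 0.18 as deposited. Counts of genes past 1.5-fold are small and changed with the limits by construction. With a limit of 0.32 on the log2 scale they were 5 higher and 2 lower in 0.02 Gy minus 0 Gy, 3 and 2 in 2.5 Gy minus 0 Gy, and 5 and 7 in 2.5 Gy minus 0.02 Gy. At 3-fold they were 0 throughout. At the 75th percentile minimum they were 0 higher in each comparison and 1 lower (Pcna) in 2.5 Gy minus 0.02 Gy. Without a level minimum 1 gene, Gins2, was lower in 0.02 Gy minus 0 Gy. With median centring 0 genes were higher in 2.5 Gy minus 0 Gy. All 342 differences of single members under the 3 other scalings changed by less than a robust SD, taken from the gene's level bin or, for genes below the minimum, which have no bin, as the largest of any bin. The robust SDs ran from 0.27 to 0.36, so shifts up to that size count as unchanged. Medians were compared with an approximate standard error of the median, taken from the spread between genes of the list and not from replicates. Of the medians of the replication genes, 5 moved by more than that standard error and 13 did not. Of their counts, 16 moved, by more than a factor of 1.5 or to or from 0, and 56 did not. Of 90 medians of the other lists, 15 moved by more than their standard error over genes. The cause of these moves was not tested. Over all genes, counts past 1.5-fold were, higher and lower, 869 and 547 (0.02 Gy minus 0 Gy), 704 and 399 (2.5 Gy minus 0 Gy) and 666 and 657 (2.5 Gy minus 0.02 Gy). Without the level minimum the lower counts were 1259, 956 and 1121 and the last higher count 1174. At the 75th percentile they were 217, 156 and 373, and 348.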
